A study of Mus musculus with 8 samples.

Results

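Keratins are the intermediate filament proteins of epithelial cells, and 9 keratin genes of mouse embryonic stem (ES) cells are described here. They were taken by name: the simple epithelial keratins Krt7, Krt8, Krt18 and Krt19, the stratified epithelial keratins Krt5, Krt14, Krt15 and Krt17, and Krt20, a keratin of gut and bladder lining. Every probe set annotated to 1 of these symbols alone was used, 14 of the 45037 probe sets tested, and the 9 genes stand among 18193 genes in all. The names were put together with the differences between the treatments already known, so the members' differences are a description here and support nothing by themselves.

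RNA was measured on 8 one-colour Affymetrix arrays. ES cells labelled Oct4-Gip, at passage 25, were lipofected with an esiRNA, a pool of short double-stranded RNAs cut from a longer transcript, and sampled on day 4. Of the 8 arrays, 4 came from cells given esiRNA against Ctr9 and 4 from controls given esiRNA against luciferase, a gene these cells lack; all 8 share strain, passage, transfection method and day. Ctr9 is a subunit of the Paf1 complex, which accompanies RNA polymerase II along genes. The arrays compare transcript levels after the 2 treatments.

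A keratin filament is built from pairs, each of 1 acidic type I chain and 1 basic type II chain. Single-layered (simple) epithelia pair Krt8 or Krt7, both type II, with Krt18 or Krt19, both type I. The basal layer of stratified epithelia pairs Krt5 (type II) with Krt14 or Krt15 (type I), and Krt17 is a type I keratin of skin appendages and stressed epidermis. Krt8 and Krt18 are the first keratins of the mouse embryo and mark the trophectoderm, the outer cell layer of the blastocyst, and they are also made by endoderm and other epithelia.

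Array medians ran from 5.74 to 5.76 (log2 signal), and the correlation of arrays was 0.997 to 0.998 inside a group and 0.992 to 0.994 across groups. The first principal component (62.3% of variance) parted the treatments, and the next (8.93%) parted luciferase arrays 1 and 2 from 3 and 4. Ctr9 itself was read by 5 probe sets, whose differences ran from -0.18 to 0.29. Of these, 2 were lower, 1 was higher, and the brightest differed by -0.09 (SE 0.047) without passing, so the groups are named as their labels name them. Whether these probe sets lie inside the stretch the esiRNA targets was not known. The ES cell genes Pou5f1 (13.46 with luciferase and 13.26 with Ctr9 esiRNA, mean log2 signal) and Nanog (13.27 and 12.84) read high in both groups. Both were lower with Ctr9 esiRNA, at differences of -0.20 (SE 0.042) and -0.44 (SE 0.044), past the threshold used below. The labels do not state that replicates were independent cultures, so every p-value reflects the spread of these arrays alone, possibly a technical one, and their number limits the precision.

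The start regions of the simple keratins Krt8, Krt18 and Krt7, which were higher with Ctr9 esiRNA, are shown first. That of Krt5, which did not pass the threshold, stands beside them. RefSeq's promoter table (build GRCm38.p6) held 6 of the 9 genes, and not Krt15, Krt17 or the simple keratin Krt19. Each sequence is the 250 bases before the annotated start, and capitals mark every match to any searched motif that lies whole within it. Krt8 is on the minus strand at chr15:102004343-102004592 and Krt18 on the plus strand at chr15:102027966-102028215. Krt7 is on the plus strand at chr15:101412153-101412402 and Krt5 on the minus strand at chr15:101712906-101713155.
Krt8: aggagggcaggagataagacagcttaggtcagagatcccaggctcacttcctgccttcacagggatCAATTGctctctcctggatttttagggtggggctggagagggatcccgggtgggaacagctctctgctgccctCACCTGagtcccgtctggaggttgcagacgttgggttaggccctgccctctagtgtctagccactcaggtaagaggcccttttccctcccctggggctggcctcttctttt
Krt18: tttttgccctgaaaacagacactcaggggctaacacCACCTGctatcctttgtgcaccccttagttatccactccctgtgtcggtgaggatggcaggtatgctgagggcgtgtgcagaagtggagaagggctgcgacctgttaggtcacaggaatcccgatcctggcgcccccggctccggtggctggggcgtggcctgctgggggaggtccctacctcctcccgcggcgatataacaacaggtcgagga
Krt7: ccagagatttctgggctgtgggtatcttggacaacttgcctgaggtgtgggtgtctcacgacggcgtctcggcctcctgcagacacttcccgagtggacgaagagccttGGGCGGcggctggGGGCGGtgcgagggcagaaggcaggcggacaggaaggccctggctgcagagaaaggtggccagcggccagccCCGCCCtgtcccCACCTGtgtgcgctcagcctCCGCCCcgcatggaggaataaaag
Krt5: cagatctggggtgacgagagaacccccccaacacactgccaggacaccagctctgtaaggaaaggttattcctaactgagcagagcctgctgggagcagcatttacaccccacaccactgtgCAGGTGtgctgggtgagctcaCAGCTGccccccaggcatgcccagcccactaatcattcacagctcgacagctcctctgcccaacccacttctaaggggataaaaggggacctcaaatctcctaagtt

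Motifs were searched on both strands over 300 bases, from 250 before to 50 after the start, in 32817 start regions. The AP-1 site TGANTCA was found in 7.81% of all regions, the TEAD site GGAATG in 14.7% and the Ets site CCGGAA in 14.9%, and in none of the Krt7, Krt8, Krt18 and Krt5 regions. The GC box GGGCGG (35.6% of regions) occurred 4 times before Krt7 and not before Krt8, Krt18 or Krt5. The TATA box TATAAA (13.6% of regions) lay across the annotated start of Krt8, where 2 overlapping matches on opposite strands were counted, and began 29 bases before the start of Krt20. Krt20 also held 3 TEAD matches, 2 of them overlapping, and Krt14 held 1 TEAD and 1 Ets match. The E-box CANNTG was found in 72.3% of all regions. Its form CACCTG, searched once the sequences had been seen and found in 20.2% of regions, began 111 bases before Krt8, 214 before Krt18, 44 before Krt7 and, as its reverse complement, 128 before Krt5. These are matches of letters only, and no binding was measured. Sites outside the 300 bases were not searched for, so a motif missing here can lie elsewhere in or near the gene.

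All 4 simple keratins were higher in the Ctr9 esiRNA arrays, and 3 of the 4 stratified ones did not pass the threshold. By gene, each read by its brightest probe set, 5 of the 9 members were higher at an adjusted p under 0.05 (limma, Benjamini-Hochberg over all 45037 probe sets), none was lower, and 4 did not pass. Across all 18193 genes 15.8% were higher and 15% were lower, a background from which nothing is read for genes chosen on this contrast. The groups did not overlap for 5 members, all with Ctr9 esiRNA higher, against 36.6% of all genes in either direction and 18.8% in that one. Of the 14 member probe sets 7 were higher and none lower, against 11.8% higher, 13.1% lower and 24.9% in all among the probe sets tested. The median difference was 2.01 for the simple keratins, -0.001 for the stratified ones and 0.004 for all genes, on the log2 scale.

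**Figure D1:**
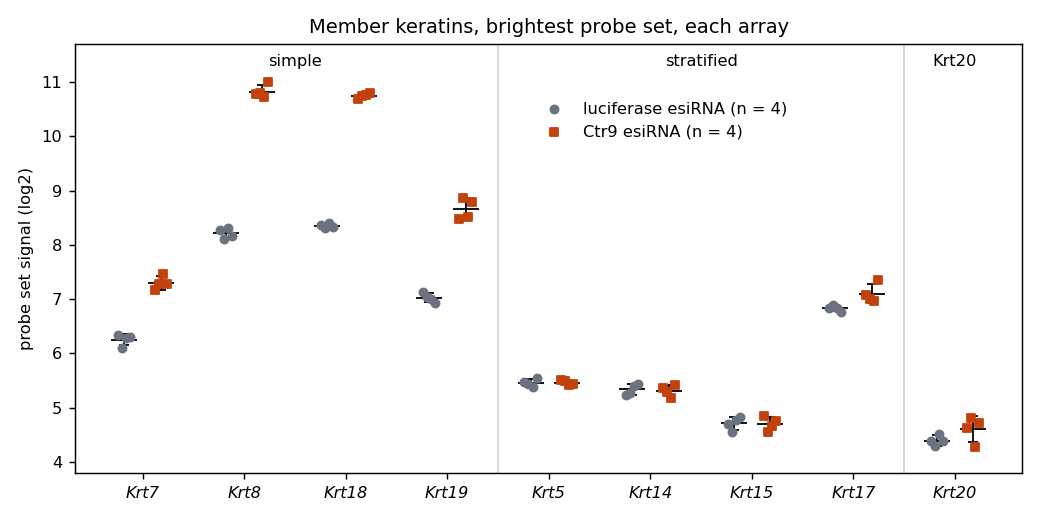
Log2 signal of the brightest probe set of each member keratin (y axis) on every array, for 4 luciferase (grey circles) and 4 Ctr9 esiRNA arrays (orange squares); bars give the mean and SD. The 2 groups lie apart for Krt7, Krt8, Krt18, Krt19 and, narrowly, Krt17, and overlap for Krt5, Krt14, Krt15 and Krt20.

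Krt8, the type II chain of the earliest embryonic keratin pair, read 8.28, 8.10, 8.31 and 8.16 on luciferase arrays 1 to 4 and 10.79, 10.80, 10.72 and 10.99 on Ctr9 esiRNA arrays 1 to 4 (log2 signal). All 4 Ctr9 esiRNA arrays lay above all luciferase arrays, with a gap of 2.41 between the nearest values. The means were 8.21 ± 0.1003 and 10.82 ± 0.116 (SD, n = 4 each), a log2 difference of 2.61 (SE 0.071) or 6.11-fold (95% confidence interval 5.47 to 6.82). Among all genes this was the difference of rank 4 from the top. The signal went from above 75.8% of all probe sets to above 94.4%.

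Krt8 was read by 2 further probe sets. One went from 7.91 ± 0.023 to 10.42 ± 0.118 (SD, n = 4 each), a difference of 2.52 (SE 0.061), and the other from 7.89 ± 0.058 to 10.26 ± 0.035, a difference of 2.37 (SE 0.047). Both carry the suffix with which the manufacturer marks probes that can also bind other transcripts, as does the brightest Krt14 probe set, and RefSeq's gene table lists a Krt8 pseudogene. The 3 Krt8 probe sets thus gave 5.17-fold to 6.11-fold, and none had groups that overlapped between groups.

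Krt18, the type I partner of Krt8, read 8.37, 8.31, 8.40 and 8.33 on the luciferase arrays and 10.69, 10.73, 10.75 and 10.80 on the Ctr9 esiRNA arrays. The groups lay 2.30 apart at their nearest values, and their SDs, 0.037 around 8.35 and 0.044 around 10.74 (n = 4 each), were the smallest among the brightest probe sets of the 4 simple keratins. The difference was 2.39 (SE 0.045), or 5.24-fold (95% confidence interval 4.89 to 5.62), of rank 10 among all genes.

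Whether the partners moved by the same amount depended on the Krt8 probe set. With the brightest one, the log2 difference Krt8 minus Krt18 within an array went from between -0.22 and -0.08 with luciferase esiRNA to between -0.03 and 0.19 with Ctr9 esiRNA, a change of 0.22. The dimmest Krt8 probe set changed by 2.37, against 2.39 for Krt18. Levels of different probe sets cannot be compared, so the ratio of the 2 transcripts is not known from these arrays.

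Krt19, a small type I keratin of simple epithelia, read 7.12, 7.05, 7.01 and 6.93 on the luciferase arrays and 8.47, 8.86, 8.51 and 8.80 on the Ctr9 esiRNA arrays. The lowest Ctr9 esiRNA value was 1.35 above the highest luciferase value, although the Ctr9 esiRNA arrays spread more widely (SD 0.199 against 0.081, n = 4 each). The difference was 1.63 (SE 0.092), or 3.10-fold (95% confidence interval 2.69 to 3.58), of rank 41 among all genes. Relative to Krt18 on the same arrays, Krt19 changed by 0.76 log2 units less, a fall from -1.33 ± 0.081 to -2.08 ± 0.179 (SD, n = 4 each) in the difference Krt19 minus Krt18.

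Krt7, a type II keratin of ducts and of trophoblast, had the smallest difference among the simple keratins. It read 6.33, 6.10, 6.28 and 6.30 on the luciferase arrays and 7.16, 7.28, 7.46 and 7.28 on the Ctr9 esiRNA arrays. The groups lay 0.83 apart at their nearest values, and the means differed by 1.04 (SE 0.074), or 2.06-fold (95% confidence interval 1.84 to 2.31). Its rank was 170 among all genes, of which 184 (1.01%) were at least 2-fold higher and past the threshold.

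The order of the differences was Krt8, Krt18, Krt19, Krt7. The 95% intervals of neighbours overlapped only for Krt8 (2.45 to 2.77 on the log2 scale) and Krt18 (2.29 to 2.49). With luciferase esiRNA, Krt19 and Krt7 read lower (7.03 and 6.25) than Krt8 and Krt18 (8.21 and 8.35). Whether signal level had a part in this order was not tested. Over 19 alternative settings the simple keratins stayed past the threshold in each. Their differences ranged from 2.50 to 2.65 for Krt8, 2.37 to 2.41 for Krt18, 1.57 to 1.70 for Krt19 and 0.99 to 1.09 for Krt7.

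**Figure D2:**
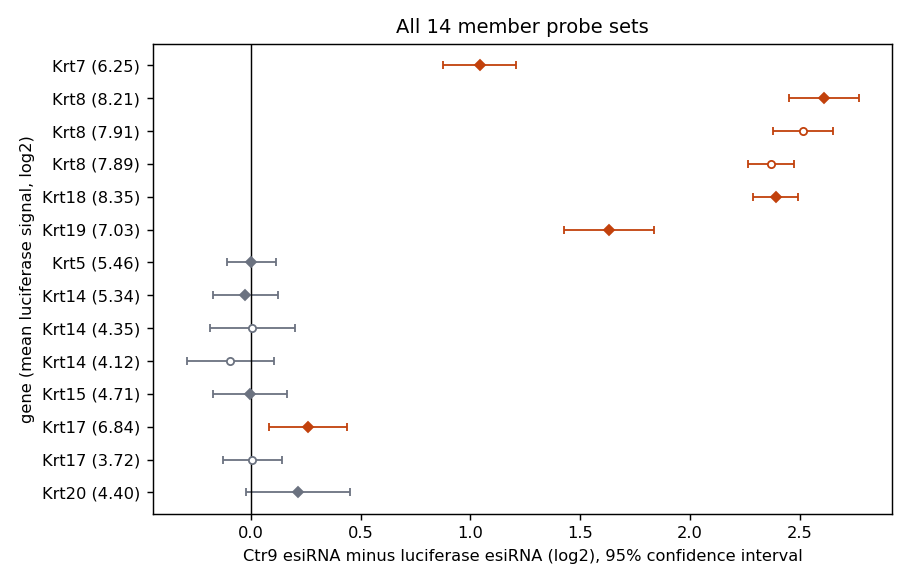
Log2 difference, Ctr9 minus luciferase esiRNA (x axis), with its 95% confidence interval for all 14 member probe sets, named with their mean luciferase signal; diamonds are the brightest probe set of a gene, open circles the others, and orange marks those past the threshold. The 6 simple keratin probe sets lie between 1.04 and 2.61, and the 8 others between -0.09 and 0.26.

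Among the stratified keratins, Krt5, the type II keratin of basal epidermis, read 5.48, 5.45, 5.38 and 5.54 on the luciferase arrays and 5.51, 5.50, 5.42 and 5.44 on the Ctr9 esiRNA arrays. The groups overlapped, with a difference of 0.002 (SE 0.050) and a 95% interval of -0.11 to 0.11. This interval ends below the smallest difference of the simple keratins. That is a description only, as the genes were chosen with these differences known and Krt5 read low.

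Krt14, the basal type I partner of Krt5, was read by 3 probe sets, at mean luciferase signals of 5.34, 4.35 and 4.12. Their differences were -0.03 (SE 0.066), 0.006 (SE 0.087) and -0.09 (SE 0.089), with overlapping groups for each. Krt15, another basal type I keratin, read 4.70, 4.56, 4.77 and 4.82 against 4.85, 4.56, 4.67 and 4.75, a difference of -0.004 (SE 0.076). Krt5, Krt14 and Krt15 all read below the median probe set signal of 5.75, and RMA, the method by which the signals were made, compresses differences of such low signals. No background level was measured here, so a low transcript and none cannot be told apart.

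Krt17 stood apart from the other stratified keratins on 1 of its 2 probe sets. The brighter read 6.84, 6.89, 6.84 and 6.77 on the luciferase arrays and 7.07, 6.997, 6.97 and 7.35 on the Ctr9 esiRNA arrays. The nearest values lay 0.08 apart and replicate 4 of the Ctr9 esiRNA arrays was the highest. The difference was 0.26 (SE 0.080), or 1.20-fold (95% confidence interval 1.06 to 1.36), and without that array it was 0.18. The dimmer probe set, at 3.72 with luciferase esiRNA, differed by 0.006 (SE 0.061). The Krt17 call was the least firm among the members: it held in 11 of 19 alternatives and ended without any 1 of the luciferase replicates 1, 2, 3 or 4 or Ctr9 esiRNA replicate 1, with either luciferase pair left out, and with the replicate number as a block. A single probe set annotated to both Krt17 and Krt14, which the rule leaves out, went from 5.32 ± 0.070 to 5.14 ± 0.124 (SD, n = 4 each), a difference of -0.18 (SE 0.068) that did not pass.

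Krt20 read 4.39, 4.29, 4.52 and 4.38 on the luciferase arrays and 4.63, 4.81, 4.27 and 4.73 on the Ctr9 esiRNA arrays. Of the 4 Ctr9 esiRNA arrays, 3 lay above all luciferase arrays and replicate 3 lay below them. The difference of 0.22 (SE 0.106, 95% interval -0.02 to 0.45) did not pass, and without that replicate it was 0.33 and past the threshold.

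The rest of the keratin family gives the background. Outside the members, 39 keratin genes had a 1-symbol probe set, and 2 of them rose, 1 fell and 36 did not pass, at a median difference of 0.01. Of these 39, 28 read below the median probe set signal, and among all genes below it 9.78% passed in either direction, against 42.1% at or above it and 30.8% of all genes. Over all 47 of their probe sets the differences ran from -0.46 to 0.33.

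The keratin that fell was Krt42, a type I keratin to which RefSeq's gene table also gives the names K17n and ecat6. Its brighter probe set read 10.06, 10.03, 9.98 and 10.09 on the luciferase arrays and 9.76, 9.67, 9.77 and 9.83 on the Ctr9 esiRNA arrays. All 4 Ctr9 esiRNA values were lower, by 0.29 on the means (difference -0.29, SE 0.050; limma adjusted p = 0.00194). The other Krt42 probe set was also lower, at -0.46 (SE 0.060) with a limma adjusted p of 0.00033. Krt42 was the 1 keratin outside the members whose luciferase mean reached 8, and its call held in all 19 alternatives.

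Krt80, a type II keratin, went from 4.76 ± 0.034 to 4.98 ± 0.090 (SD, n = 4 each; limma adjusted p = 0.0133), and Krt28, a type I keratin of the hair root sheath, from 4.00 ± 0.189 to 4.33 ± 0.048 (limma adjusted p = 0.0163). Both rises came at low signal. The Krt80 call ended with either luciferase pair left out, and that of Krt28 with luciferase arrays 1 and 2 left out. The hair keratin Krt34 (0.14, SE 0.046; limma adjusted p = 0.0558) did not pass, but did in 5 of 18 alternatives: with median centring, quantile normalization, cyclic loess or averaged probe sets, and without luciferase replicate 3. In each of these 5 of the 39 genes passed, as many as without Ctr9 esiRNA replicate 3.

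**Figure D3:**
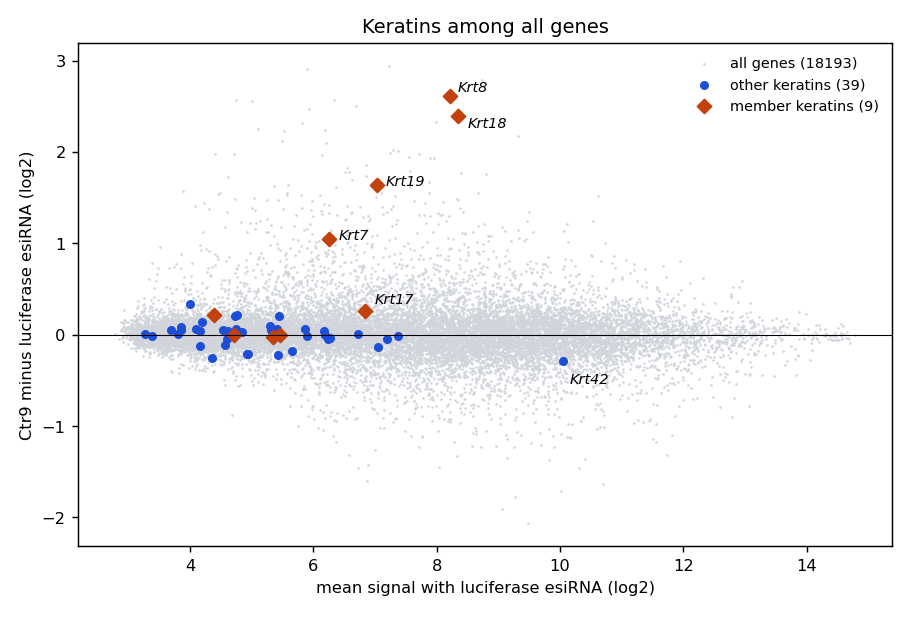
Mean luciferase signal (x axis, log2) against the difference Ctr9 minus luciferase esiRNA (y axis, log2) for 18193 genes (grey), with the 9 member keratins (orange diamonds) and 39 other keratins (blue). Krt8, Krt18, Krt19 and Krt7 lie above the other keratins, and Krt42, near a signal of 10.04, lies below 0.

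Mouse keratin genes lie in 2 clusters, the type I genes on chromosome 11 and the type II genes on chromosome 15, with Krt18 as the type I gene at the end of the type II cluster, next to Krt8. In RefSeq's gene table the chromosome 11 cluster holds 27 keratin genes, of which 24 were measured, 3 rose and 1 fell. The chromosome 15 cluster holds 26, of which 24 were measured and 4 rose. In both clusters most measured genes did not pass. The same held for all genes, of which 15.8% rose and 15% fell. These counts include the 9 members, which were chosen on this contrast. Of the 39 other keratins 28 read below the median signal, where 9.78% of all genes passed. Krt78, the neighbour of Krt8 on its other side, differed by 0.005 (SE 0.062), and Eif4b, a translation factor gene next to Krt18, by 0.07 (SE 0.041); neither passed. Tns2, a focal adhesion gene beyond Eif4b, rose by 0.29 (SE 0.071; limma adjusted p = 0.0118). Of the neighbours of Krt19, Krt15 differed by -0.004, and of those of Krt7, Krt80 rose by 0.22 (SE 0.054).

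**Figure D4:**
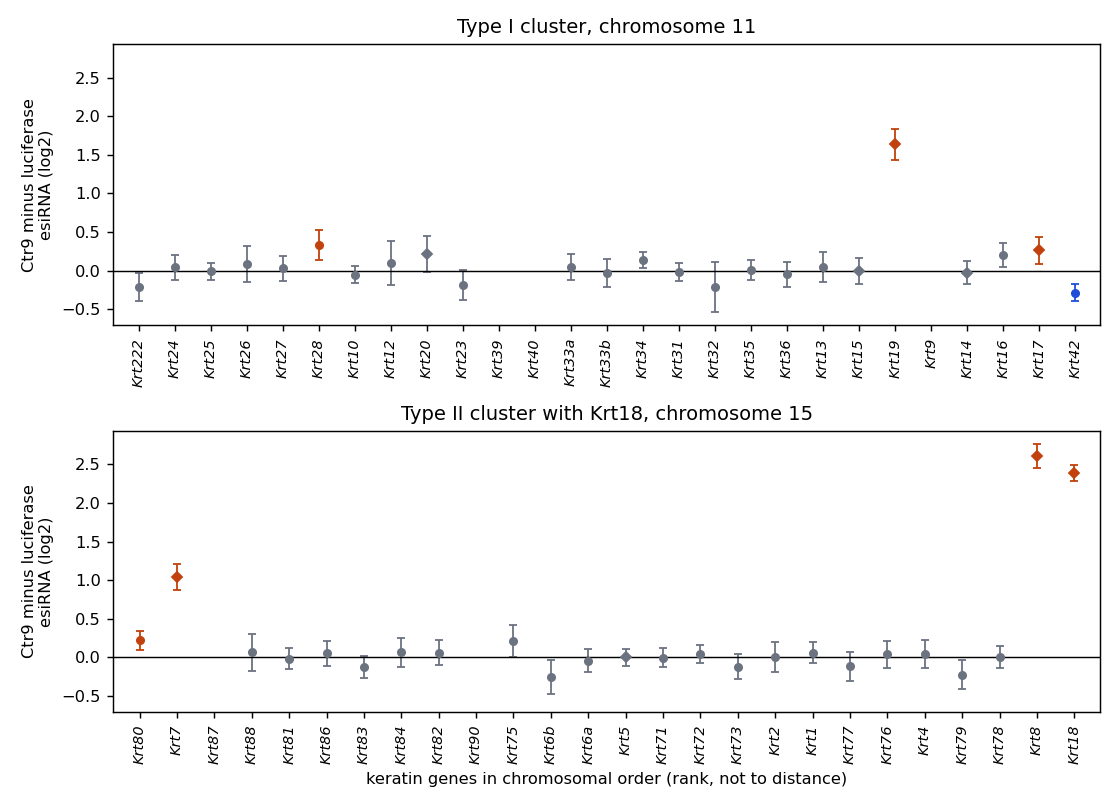
Log2 difference, Ctr9 minus luciferase esiRNA (y axis), with its 95% confidence interval for each measured keratin gene in chromosomal order (x axis, by rank), on chromosome 11 (upper) and 15 (lower); orange marks higher, blue lower and grey not past the threshold, and diamonds are the 9 members. Krt8 and Krt18 stand side by side at 2.61 and 2.39, and Krt7 and Krt19 stand alone among grey neighbours or small changes.

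The genes whose 8 array values lay closest to those of Krt8 and Krt18, each centred on its own mean, were found by root mean square distance over 18017 other genes. For Krt8 these were the guanylate binding protein genes Gbp2 (distance 0.093 log2 units), Gbp2b (0.093) and Gbp3 (0.126), the growth factor gene Igf2 (0.126) and Krt18 (0.130). For Krt18 they were Gbp2 (0.082), Gbp2b (0.105), the TEAD cofactor gene Vgll3 (0.116), Gbp3 (0.117) and the iodide transporter gene Slc5a5 (0.125). Krt18 stood 0.397 from Krt19 and 0.680 from Krt7. With 2 groups this measure mostly reflects the size of the difference between them.

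Of 16 other intermediate filament genes measured, 8 rose, 2 fell and 6 did not pass, at a median of 0.11. For all genes the median was 0.004, and 15.8% rose and 15% fell. This list and those below were chosen with earlier results of these data known, so their counts are a description only. The neuronal filament genes Nefm (0.78, SE 0.068; limma adjusted p = 2.14e-05), Ina (0.58, SE 0.060; 7.32e-05) and Nefl (0.39, SE 0.048; 0.000236) had the smallest adjusted p-values, followed by Vim, the vimentin of mesenchymal cells. Vim read 11.26, 11.17, 11.24 and 11.23 against 11.55, 11.56, 11.44 and 11.55, a rise of 0.30 (SE 0.048; limma adjusted p = 0.00107), and both its other probe sets rose too. Nes (0.39, SE 0.083; limma adjusted p = 0.00653), a filament gene of neural progenitors, and Lmna (0.26, SE 0.050; 0.00314), a nuclear lamin, also rose, and the Nes call ended with luciferase arrays 1 and 2 left out. Of the 2 other Nes probe sets 1 rose, and Nefm was dim, at 5.23 with luciferase esiRNA. The neurofilament gene Nefh differed by -0.12 (SE 0.064; limma adjusted p = 0.202) and did not pass. The 2 genes that fell were Gfap (-0.21, SE 0.068; limma adjusted p = 0.0443) and Lmnb2 (-0.16, SE 0.054; 0.0491). The largest change in this list was smaller than that of Krt7.

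Of 15 measured genes that anchor keratin filaments at desmosomes and hemidesmosomes, 3 rose, 3 fell and 9 did not pass, at a median of -0.04. That is a share near those of all genes (30.8%) and of genes at or above the median signal (42.1%). The desmosomal cadherin gene Dsg2 fell by 0.40 (SE 0.060; limma adjusted p = 0.000797), and 4 of its 5 other probe sets fell as well, while Dsc2, another desmosomal cadherin gene, rose by 0.39 (SE 0.090; 0.0103). The plakin gene Ppl rose by 0.24 (SE 0.047; limma adjusted p = 0.00357) and Dst fell by 0.27 (SE 0.069; 0.0158). Dsp, the main linker of keratins to desmosomes, differed by -0.15 (SE 0.073; limma adjusted p = 0.183) and Plec, which links them to hemidesmosomes, by 0.13 (SE 0.049; 0.0911). With luciferase arrays 3 and 4 left out, 2 of the 15 passed, and Dsc2 and Dst were not among them. Of all genes 4241 passed in that setting, against 5600 as reported. Averaged over its probe sets, Dst differed by -0.05 and did not pass (limma adjusted p = 0.545).

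Among 9 genes whose proteins bind keratins or act as their chaperones, 2 rose and 3 fell. Of all genes 15.8% rose and 15% fell. Of those at or above the median signal, where all 9 lay, 42.1% passed in either direction. Sfn, the 14-3-3 sigma of epithelial cells, rose by 0.60 (SE 0.041; limma adjusted p = 4.44e-06), from 8.07, 8.10, 8.09 and 8.13 to 8.71, 8.69, 8.70 and 8.69. The Sfn groups lay far apart against their SDs of 0.025 and 0.011 (n = 4 each). The chaperone gene Dnajb6 fell by 0.32 (SE 0.043; limma adjusted p = 0.000391) on its brightest probe set, but its 3 other probe sets ran from -0.16 to 0.56. The keratin-binding Fbf1 rose by 0.19 (SE 0.046; limma adjusted p = 0.0129) and Tchp fell by 0.20 (SE 0.052; 0.0162). The count was 5 of 9, and 2 with luciferase arrays 3 and 4 left out, when Fbf1 and Tchp no longer passed. Calls over all genes went from 5600 to 4241 in that setting. The Tchp call also ended with the replicate number as a block.

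Of 21 measured transcription factors of epithelia, 7 rose, 5 fell and 9 did not pass, at a median of 0.08. Among all genes the shares were 15.8% higher, 15% lower and 30.8% in either direction. Klf4, a factor of both ES cells and epithelia, fell by 0.91 (SE 0.048; limma adjusted p = 9.51e-07), and its relative Klf5 fell by 0.50 (SE 0.054; 9.65e-05). The trophectoderm factor Cdx2 rose by 1.39 (SE 0.094; limma adjusted p = 4.37e-06), with 5.68, 6.02, 5.75 and 5.83 on the luciferase arrays against 7.30, 7.12, 7.03 and 7.39. Klf6 rose by 1.31 (SE 0.101; limma adjusted p = 1.02e-05) on its brightest probe set, and its 4 others rose too, and Grhl2, a factor of epithelial junction genes, rose by 0.65 (SE 0.055; 1.98e-05). The 3 other Grhl2 probe sets changed less (0.19 to 0.25, of which 1 passed), and the average over all 4 was 0.33. Trp63, the master factor of stratified epithelia, differed by -0.08 (SE 0.084; limma adjusted p = 0.555), to a mean of 4.92 ± 0.169 (SD, n = 4) on the Ctr9 esiRNA arrays.

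AP-1 and Ets proteins are known regulators of Krt18. Of 9 measured genes of these families, 4 rose and none fell (limma; 4 also rose with the replicate number as a block), at a median of 0.22. Among all genes 15.8% rose and 15% fell. The 4 that rose are AP-1 genes. Neither Ets1 nor Ets2 passed on its brightest probe set, although 2 of the 3 other Ets1 probe sets rose. The part of these genes in the Krt18 difference was not tested. Jun rose by 1.38 (SE 0.052; limma adjusted p = 1.49e-07), from 7.25, 7.32, 7.28 and 7.18 to 8.54, 8.68, 8.63 and 8.69. Fos rose by 0.71 (SE 0.081; limma adjusted p = 0.000127), Junb by 0.37 (SE 0.086; 0.0115; 3 Ctr9 esiRNA arrays, as the value of replicate 1 is empty) and Fosl2 by 0.29 (SE 0.089; 0.0387), while Ets2 differed by -0.10 (SE 0.050; 0.185). The Fosl2 call ended without luciferase replicate 1, 2 or 3 or Ctr9 esiRNA replicate 2 or 3, and with either luciferase pair left out, and its average over both probe sets was 0.55. Among probe sets with all 8 values, 3 of 8 genes rose, as Junb was not tested.

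Of 4 repressors of epithelial genes, Zeb1 fell by 0.53 (SE 0.058; limma adjusted p = 0.000106), Snai1 rose by 0.63 (SE 0.091; 0.000602) and Zeb2 rose by 0.86 (SE 0.163; 0.00314), and Snai2 differed by 0.08 (SE 0.067; 0.477). The 3 other Zeb1 probe sets did not pass (-0.19 to -0.16), averages over all probe sets were -0.26 for Zeb1 and 0.43 for Zeb2, and Zeb2 and Snai1 were dim, at 4.44 and 5.05 with luciferase esiRNA. The repressors thus did not share 1 direction.

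**Figure D5:**
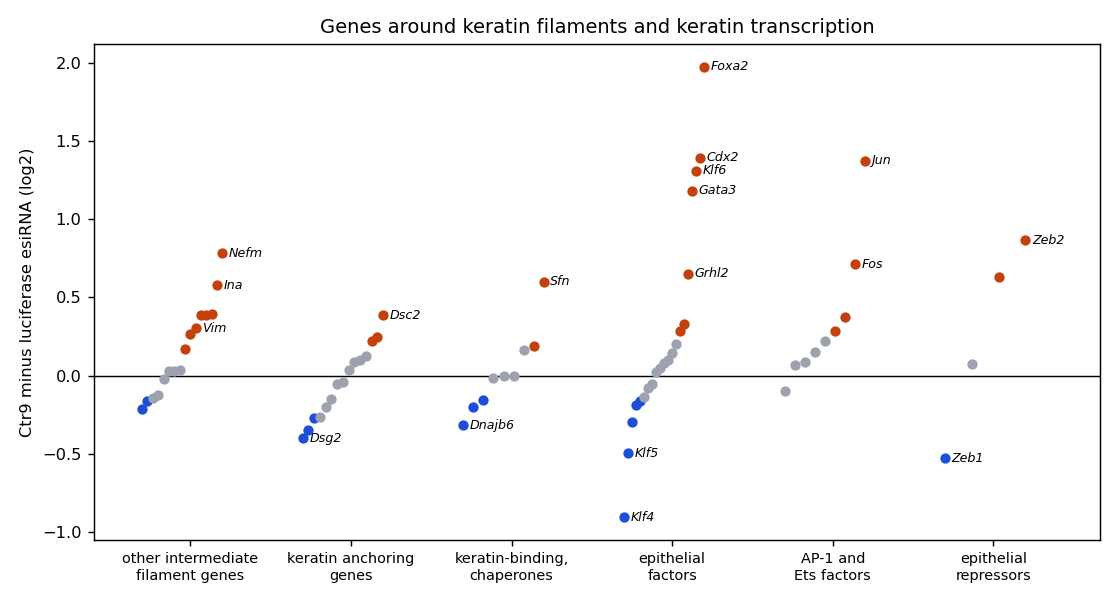
Log2 difference, Ctr9 minus luciferase esiRNA (y axis), of the brightest probe set of each gene in 6 lists around keratins; orange marks genes that rose, blue genes that fell and grey those that did not pass. Each list with several changed genes, apart from the AP-1 and Ets factors, holds changes in both directions.

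In bulk RNA, more cells of a type and more transcript per cell cannot be told apart. The marker lists, too, were chosen with earlier results of these data known. Their counts are a description, and nothing is read from the shares of all genes beside them. Of 10 measured trophoblast markers 6 rose and none fell, while 15.8% of all genes rose and 15% fell. The mean log2 signal over the list ran from 5.91 to 6.07 on the luciferase arrays and from 6.55 to 6.60 on the Ctr9 esiRNA arrays. Plac1 (1.50, SE 0.062; limma adjusted p = 2.2e-07), Gata3 (1.18, SE 0.127; 9.1e-05) and Ascl2 (0.89, SE 0.102; 0.000136) rose with Cdx2, while Elf5 and Tpbpa read 4.23 and 4.33 in the Ctr9 esiRNA arrays and did not pass. Tfap2c, brighter at 10.40 with luciferase esiRNA, differed by -0.13 without passing, and both its other probe sets fell. Of 14 visceral endoderm markers 4 rose, 1 fell (Hnf4a, -0.16, SE 0.051; limma adjusted p = 0.041) and 9 did not pass, a share near the 30.8% of all genes, at a median of 0.02 (list mean 5.88 to 5.97 against 6.18 to 6.30). Those that rose were Foxa2 (1.98, SE 0.169; limma adjusted p = 2.04e-05), Lrp2 (1.51, SE 0.094; 2.71e-06), Dab2 (1.26, SE 0.073; 1.62e-06) and Amn (0.29, SE 0.060; 0.005). Averaged over their probe sets Lrp2 rose by 0.88 and Dab2 by 0.63, and each had 1 probe set slightly below 0 (-0.08 and -0.05) that did not pass. Afp and Gata6 read 4.52 and 4.92 in the Ctr9 esiRNA arrays and did not pass.

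Keratinocyte markers, like the stratified keratins, mostly did not pass. Of 14 measured, 2 rose, 1 fell and 11 did not pass, while 15.8% of all genes rose and 15% fell. But 8 of the 14 read below the median probe set signal, where 9.78% of all genes passed in either direction. The list mean ran from 5.25 to 5.30 on the luciferase arrays and from 5.28 to 5.32 on the Ctr9 esiRNA arrays. Sbsn (0.26, SE 0.055; limma adjusted p = 0.00662) and Lor (0.38, SE 0.084; 0.00784) rose and Cdsn fell by 0.27 (SE 0.083; 0.0359), and each of these calls ended with a luciferase pair left out. The Cdsn call also ended without any 1 of luciferase replicates 1, 3 or 4 or Ctr9 esiRNA replicates 1, 2 or 4. Fibroblast markers rose in 6 of 15 cases, and 9 did not pass, at a median of 0.08 (list mean 5.29 to 5.40 against 5.53 to 5.59). Among those that rose were Mmp2 (0.42, SE 0.047; limma adjusted p = 0.000109), Col5a2 (0.74, SE 0.093; 0.000251), Twist1 (0.41, SE 0.057; 0.000441) and Bgn (0.75, SE 0.106; 0.000532). The 2 other Bgn probe sets rose by 0.17 and 0.21, and its average over all was 0.38. Col1a1 (0.05) and Col3a1 (-0.01), dim at 5.34 and 4.12 with luciferase esiRNA, did not pass. Of 12 ES cell markers 7 fell and 1 rose (list mean 12.52 to 12.55 against 12.13 to 12.20), with Esrrb (-1.10, SE 0.069), Fgf4 (-0.94, SE 0.075) and Tfcp2l1 (-0.92, SE 0.043) among those that fell. Neither of the 2 other Tfcp2l1 probe sets passed (-0.05 and 0.08), and its average over all was -0.30. The part of these cell types in the keratin differences was not tested.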

How the data were processed

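The deposited table holds log2 probe set signals of 8 one-colour Affymetrix arrays. Per the labels' protocols the authors used one-cycle labelling of total RNA, and the submitters' processing notes name GCOS 1.4 and RMA (settings not given in the sources used here). The log2 values were used as deposited. Of 45101 probe sets 64 manufacturer's controls were left out. Platform annotation gave 1 symbol to 34945 probe sets, several to 932 and none to 9160, unnamed here. RefSeq's GRCm38.p6 gene table held the identifiers of 34741. The brightest 1-symbol probe set, by mean over all arrays, stood for each gene. Among tested values 456 were empty, none in a member.

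Groups were compared with limma 3.58.1 in R 4.3.3 (lmFit, eBayes), Benjamini-Hochberg adjusted over 45037 probe sets, threshold 0.05. SE is limma's. The fit was tested on simulated data. The members and lists were chosen with earlier results of these data known. Named were all members, up to 4 genes per list with the smallest adjusted p, 12 fixed genes and the 5 nearest to Krt8 and Krt18. Chromosomal neighbours, ES cell markers checked for identity, markers at low signal and genes whose probe sets disagreed were named outside this rule. So were Nefh and the fallen Hnf4a, Gfap and Lmnb2. Each was named after its values were seen. Replicate numbers were not used as pairs in the main fit. Correlations of same-numbered deviations ran from -0.078 to 0.063, but 4 of 8 arrays correlated best with their own number in the other group. Whether the numbers pair the samples is thus not settled. Alternatives were 3 other normalizations (quantile, cyclic loess, median centring), a dim filter, array weights, a robust and trended prior, a replicate block, averaged probe sets, probe sets without empty values, and arrays left out. Figures used matplotlib 3.10.9.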

Additional observations from a re-analysis of the deposited data

Results flagged for a closer look

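Within the groups of 4 arrays, the highest or lowest array was compared with the gap to its neighbour over the whole range (Dixon's test) for the member probe sets and named genes. Of 135 groups 5 were marked, and chance marks about 1 in 20. A dim Krt14 probe set read 4.40 on Ctr9 esiRNA replicate 4, against 4.33 to 4.34 on the other arrays of the group. Vim read 11.44 on Ctr9 esiRNA replicate 3, against 11.55 to 11.56. Tchp read 7.56 on Ctr9 esiRNA replicate 2, against 7.491 to 7.4995. Snai2 read 6.10 on luciferase replicate 2, against 5.82 to 5.85. Plac1 read 4.95 on luciferase replicate 4, against 5.07 to 5.08. No array was marked more than once, and none of the brightest probe sets of the 9 keratins was among them.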

How the results depend on the processing

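The count of member keratins past the threshold was 5 and ran from 4 to 6 when arrays were left out one at a time, and it was 4 with the replicate block; the 4 simple keratins passed in each of 19 alternatives. The count of other keratins was 3 of 39 as reported. Among probe sets above the median signal it was 1 of the 11 tested, and with luciferase arrays 1 and 2 left out it was 1. It was 5 with median centring, quantile normalization, cyclic loess or averaged probe sets, and ran from 3 to 5 with 1 array left out. Keratin anchoring genes numbered 6, and 2 with luciferase arrays 3 and 4 left out. Keratin-binding genes numbered 5, 3 with the replicate block and 2 with luciferase arrays 3 and 4 left out. Calls over all genes fell in these settings too. They numbered 5600 as reported, 4773 with the replicate block and 4241 with luciferase arrays 3 and 4 left out. With luciferase arrays 1 and 2 left out they numbered 4253, and with 1 array left out 4827 to 5069. Of the epithelial repressors 3 passed, and 1 among probe sets above the median, where 2 genes were tested. Other intermediate filament genes (7 to 10), epithelial factors (9 to 14) and AP-1 and Ets factors (3 to 6) stayed within 1.5 times their counts. Dnajb6 changed sign with the mean of its probe sets (0.0027). The causes were not tested. The median difference of all genes lay between -0.009 and 0.015 over the settings. Low signals limit what can be said of the stratified keratins.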

Other observations

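Probe sets of several genes around the keratins disagreed. For Ets1 the brightest probe set differed by 0.09 (SE 0.058) and did not pass, while 2 of its 3 others rose, the largest by 1.61. Dst fell by 0.27 on its brightest probe set, and 1 of its 3 others rose by 0.30. Jund differed by 0.15 without passing, and its other probe set fell by 0.17. For Tfap2c, a trophoblast factor, the brightest probe set differed by -0.13 without passing, and both others fell, by 0.37 and 0.50. The transcript regions these probe sets read were not examined.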
